A study of Rattus norvegicus with 23 samples.

Results

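Muscle ubiquitin ligases and the FoxO transcription factors that switch some of them on were followed in rat hearts with a myocardial infarction, with or without an implanted device. The genes were chosen by name: Trim63, Trim55, Trim54, Trim50, Trim72, Fbxo32, Fbxo40, Foxo1 and Foxo3. Of these 9 genes, 8 were found among the 10723 genes with values per library and among the 11283 genes of the authors' deposited comparisons, and Fbxo40, an F-box protein of striated muscle, was not analysed here. Messenger RNA was sequenced from Sprague-Dawley myocardium after infarction plus a second operation to implant the device named TRD (MI+TRD), or after infarction alone (MI), made in both by tying off the left coronary artery. At 12 weeks there were 6 MI+TRD and 6 MI libraries with values per gene. At 6 weeks the 5 MI+TRD and 6 MI libraries entered through the authors' table of group means and p-values. All groups carry an infarct and none was left without one. The labels do not describe the device further, and do not say whether the tissue was taken from scar, border or remote muscle.

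Ubiquitin ligases mark proteins for destruction by the proteasome, and muscle keeps a set of its own. MuRF1 (Trim63), MuRF2 (Trim55) and MuRF3 (Trim54) are RING-finger ligases that sit on the sarcomere and on microtubules and act on contractile proteins. Fbxo32 encodes atrogin-1, the part of an SCF ligase complex that recognises its targets, and both atrogin-1 and MuRF1 are the classic markers of muscle wasting. The kinase AKT holds FoxO1 and FoxO3 out of the nucleus, and when released they activate Fbxo32, Trim63 and genes of autophagy in rodent muscle. Trim72 encodes MG53, which patches tears in the muscle cell membrane. Trim50 is another gene of the wider Trim family, known mainly from acid-secreting cells of the mouse stomach.

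The Trim63 promoter is shown because this gene carried the clearest difference and because FoxO binding to the promoter is well known in mouse. The window runs from 250 bases before to 50 after the gene start, from RefSeq on build GRCr8, at chr5:151816986-151817285 on the plus strand. Capitals mark the only match to the FoxO core letters GTAAACA, searched on both strands and found here as TGTTTAC, 205 bases before the start.
Trim63 promoter: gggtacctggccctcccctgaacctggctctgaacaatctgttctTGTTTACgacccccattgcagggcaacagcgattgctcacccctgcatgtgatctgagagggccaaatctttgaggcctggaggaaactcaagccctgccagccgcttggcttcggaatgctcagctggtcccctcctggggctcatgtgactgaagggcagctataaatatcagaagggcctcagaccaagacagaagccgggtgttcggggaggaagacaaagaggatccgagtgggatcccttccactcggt
Of 33469 such rat promoters, 3.78% held the letters. Promoters were found for 5 of the 9 genes, and those of Trim54, Trim72, Fbxo40 and Foxo1 held no match in this window. Among 23 promoters of a list of FoxO target genes, 2 held one.

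Reads inferred from the deposited values numbered 7197118 to 10304156 per library. The values are normalized counts in the authors' own units and are not divided by gene length, so levels are compared between libraries and not between genes. Libraries differed within groups in ways the labels do not explain. MI+TRD replicates 1, 4 and 5 had 119, 114 and 178 genes at 0 reads, while MI+TRD replicates 2, 3 and 6 had 13 to 46 and the MI libraries 28 to 75. The same 3 libraries were low in genes of short genomic span, and had 88.3 to 465 normalized counts of the alpha-globin gene Hba2, while replicates 2, 3 and 6 of that group had 0.498 to 2.71 and the MI libraries 0.809 to 25.7. Macrophage markers summed to 58.7 to 2085 in MI+TRD and 80.7 to 221 in MI, and their mean log2 level was highest in MI+TRD replicate 6. Of 8 epicardial markers 5 were higher and 0 lower in MI+TRD at an unadjusted limma p below 0.05, beside 2.79% and 19.1% of all genes. Their summed levels were 30.1 to 121.5 in MI+TRD and 27.4 to 42.7 in MI. The atrial genes Myl7 and Myl4 were highest in replicate 2 of each group. Of 15 skeletal muscle markers 6 were measured, and Myh2, a myosin of fast skeletal fibres, stayed between 0.158 and 2.08 in MI+TRD and 0.161 and 1.76 in MI.

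At 12 weeks the sarcomere ligase gene Trim63 (chromosome 5, 152533362 to 152547139, rn6, plus strand) was lower in every MI+TRD library than in any MI library. Its normalized counts in MI+TRD replicates 1 to 6 were 51.6, 52.8, 56.1, 47.9, 39.5 and 38.7, and in MI replicates 1 to 6 they were 72.2, 77.8, 65.0, 72.4, 61.8 and 65.9. The groups did not overlap, with a highest MI+TRD value of 56.1 and a lowest MI value of 61.8, and the spread within each was narrow. The mean was 47.8 ± 7.21 in MI+TRD and 69.2 ± 5.94 in MI (SD, n = 6 each), a log2 fold change of −0.54 (SE 0.12). The two-sided exact permutation p was 0.00216, the smallest that 6 against 6 libraries allow. Over all 10629 genes tested the limma adjusted p was 0.132, which missed the threshold of 0.05, at an unadjusted rank of 21.

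Trim50 (chromosome 12, 24348754 to 24363728, minus strand) showed a difference of similar size at a much lower read number, 182 to 321 reads in MI+TRD and 233 to 396 in MI. The normalized counts in MI+TRD replicates 1 to 6 were 11.4, 10.1, 12.1, 10.8, 7.18 and 12.8. In MI replicates 1 to 6 they were 20.1, 11.4, 15.9, 18.8, 16.3 and 15.8. One MI library, replicate 2, lay among those of MI+TRD and the other 5 lay above all of them. The log2 fold change was −0.60 (SE 0.17; limma adjusted p = 0.132), from means of 10.7 ± 1.98 in MI+TRD and 16.4 ± 3.03 in MI (SD, n = 6 each).

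Trim72, the membrane repair gene (chromosome 1, 199450042 to 199457903, plus strand), had 207, 291, 298, 167, 277 and 249 in MI+TRD replicates 1 to 6. In MI replicates 1 to 6 it had 389, 212, 332, 470, 348 and 335. MI replicate 2, the library with the highest Myl7 and Myl4, was again the low one of its group, and without it the log2 fold change of −0.48 (SE 0.19; limma adjusted p = 0.171) became −0.61. The deposited table lists Echs1, a mitochondrial enzyme gene, with a very long interval on the same strand that contains Trim72, and the rule for assigning reads to either gene is not given in the sources used here. With MI+TRD replicates 1, 4 and 5 left out its log2 fold change was −0.28.

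The remaining MuRFs differed less. Trim55, the MuRF2 gene (chromosome 2, 104416972 to 104459113, plus strand), had 54.3, 61.3, 61.3, 39.5, 43.4 and 41.0 in MI+TRD replicates 1 to 6, against 49.2, 77.4, 66.0, 55.4, 70.8 and 60.8 in MI replicates 1 to 6. All 6 MI+TRD libraries lay below the MI mean of 63.3, but the ranges overlapped (log2 fold change −0.34, SE 0.15; limma adjusted p = 0.208). After MI+TRD replicates 1, 4 and 5 were left out it was −0.22. Trim54, the MuRF3 gene (chromosome 6, 26603364 to 26623951, minus strand), had 204, 208, 215, 265, 282 and 163 in MI+TRD replicates 1 to 6, and 320, 266, 179, 334, 229 and 182 in MI replicates 1 to 6. Its groups lay on top of each other, with a log2 fold change of −0.16, a 95% interval from −0.55 to 0.24 and a limma adjusted p of 0.671. The sign for Trim54 depended on the scaling, at 0.00475 with median ratio scaling and 0.080 with equal totals.

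Fbxo32, the atrogin-1 gene (chromosome 7, 98065664 to 98098072, minus strand), did not share the direction of Trim63. Its normalized counts in MI+TRD replicates 1 to 6 were 12.9, 4.999, 7.34, 11.1, 14.1 and 3.54, and in MI replicates 1 to 6 they were 4.35, 3.83, 8.17, 12.0, 4.27 and 6.73. High and low libraries occurred in both groups, with a spread of 48.2% of the mean in MI+TRD and 48.1% in MI, while Trim63 had 15.1% and 8.59%. The log2 fold change was 0.40 with a 95% interval from −0.34 to 1.14 (limma adjusted p = 0.536). Without MI+TRD replicates 1, 4 and 5 the log2 fold change was −0.24.

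Foxo1 (chromosome 2, 141451234 to 141527017, plus strand) had 11.3, 9.62, 12.9, 16.4, 17.0 and 9.27 in MI+TRD replicates 1 to 6. In MI replicates 1 to 6 it had 10.7, 8.20, 9.72, 14.6, 10.8 and 10.02. Foxo3 (chromosome 20, 46428078 to 46519157, plus strand) had 18.3, 10.8, 11.7, 21.7, 18.0 and 8.75 in MI+TRD replicates 1 to 6, against 16.3, 8.78, 11.1, 15.8, 10.8 and 14.0 in MI replicates 1 to 6. For both genes the groups overlapped over most of their range, and MI+TRD replicates 4 and 5 were among the highest. The log2 fold changes were 0.23 (95% interval −0.15 to 0.62; limma adjusted p = 0.484) for Foxo1 and 0.18 (95% interval −0.31 to 0.66; limma adjusted p = 0.696) for Foxo3. With MI+TRD replicates 1, 4 and 5 left out they were −0.0065 and −0.26.

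**Figure D1:**
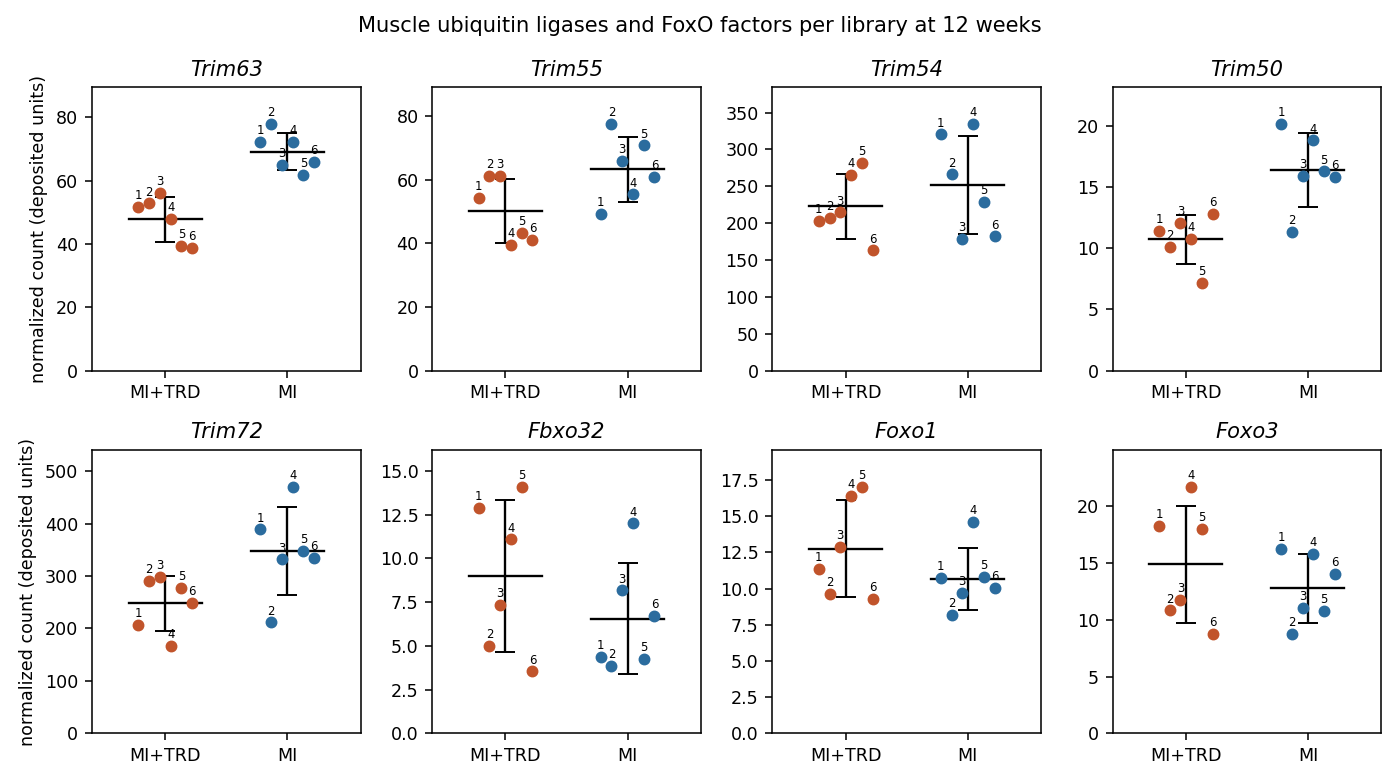
Normalized counts (authors' units, axes from 0) of the 8 measured genes in the 6 MI+TRD and 6 MI libraries at 12 weeks. Points are libraries with their replicate number, and lines and bars are mean ± SD. Trim63 is the only gene whose groups do not overlap, while Fbxo32 spans 3.54 to 14.1 in MI+TRD and 3.83 to 12.0 in MI.

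Counted together, 0 of the 8 genes passed an adjusted p of 0.05 with limma, edgeR or DESeq2. With limma, 4 were lower (Trim63, Trim50, Trim72 and Trim55) and 0 higher at an unadjusted p below 0.05, against backgrounds of 19.1% of all genes lower and 2.79% higher. The 8 genes had a median log2 fold change of −0.25, and the median over all genes was −0.14. Trim63 was 1 of 169 genes, 1.59% of those tested, whose 6 MI+TRD values all lay below all 6 MI values, and 0.113% lay above in the same way. All 6 MI+TRD values lay below the MI mean for 4 of the 8 genes (22.4% of all genes). After median ratio scaling, which brings the median gene close to 0, Trim63 and Trim50 were lower and Foxo1 higher at an unadjusted p below 0.05, against backgrounds of 8.25% lower and 7.49% higher. edgeR and DESeq2 on recovered reads each gave 2 lower and 1 higher by unadjusted p, against 6.99% of genes lower and 7.98% higher with edgeR, and 7.19% and 8.85% with DESeq2. With MI+TRD replicates 1, 4 and 5 left out, 2 were lower and 0 higher in limma, against 9.7% and 2.65%. Relative to the median gene, the log2 fold changes were −0.46 for Trim50, −0.40 for Trim63, −0.34 for Trim72, −0.20 for Trim55 and −0.01 for Trim54. On the same relative scale Fbxo32, Foxo1 and Foxo3 had 0.54, 0.38 and 0.32.

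**Figure D2:**
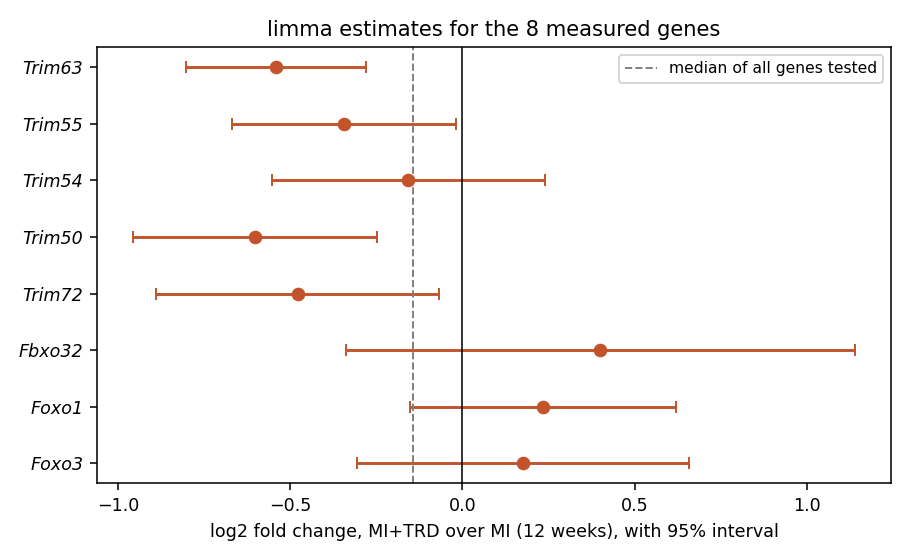
limma log2 fold changes of MI+TRD over MI at 12 weeks with 95% intervals, on log2(normalized count + pseudocount). The dashed line is the median of all genes tested, −0.14. The intervals of Trim63, Trim50, Trim72 and Trim55 lie below 0, and only those of Trim63 and Trim50 also lie below the dashed line.

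Cardiomyocyte markers were counted in the same way, and whether they varied with the 8 genes among libraries was not tested. Of 13 measured cardiomyocyte markers, 6 were lower and 0 higher in MI+TRD by an unadjusted p below 0.05, beside 19.1% and 2.79% of all genes, with a median log2 fold change of −0.31. After median ratio scaling 1 was lower and 0 higher, beside 8.25% and 7.49% of all genes. Leaving out MI+TRD replicate 6 alone gave 3 lower and 0 higher, beside 2331 and 335 of all 10629 genes. The summed level of these markers ran from 24963 to 39546 in MI+TRD and from 30556 to 50952 in MI. When each library was set to the same mean of these markers, Trim63 had a log2 fold change of −0.27 (limma unadjusted p = 0.0509) and Trim50 −0.33 (0.0922). This setting shifts all genes of a library alike, and the median of all genes became 0.13 in place of −0.14. Relative to that median Trim63 stayed at −0.40 and Trim50 at −0.46. In whole myocardium, fewer muscle cells and less RNA per muscle cell cannot be told apart. With atrial markers as a covariate Trim63 had −0.52 and Trim50 −0.69. After MI+TRD replicates 1, 4 and 5 were left out they had −0.50 and −0.47, and without replicate 6 as well, −0.34 and −0.54. The part of macrophage content in these values was not tested otherwise.

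The 6-week values come from other libraries and give a separate reading of the same contrast. In the authors' deposited table, the least-squares mean of Trim50 at 6 weeks was 10.8 in MI+TRD and 18.5 in MI, a log2 ratio of −0.78 with p = 0.000612. In the authors' deposited table Trim63 had 42.0 in MI+TRD and 57.4 in MI, a log2 ratio of −0.45 with p = 0.0111. Both were thus lower at both times, with 12-week log2 ratios of −0.64 (p = 0.00385) and −0.56 (p = 0.00102) in the authors' deposited table. At 6 weeks neither passed the authors' false discovery rate (0.286 for Trim50 and 0.408 for Trim63), and no gene of that table did. At 12 weeks the authors' deposited table put Trim63 at a false discovery rate of 0.0483, past 0.05, and Trim50 at 0.0649. The statistical model behind these values is not given in the sources used here.

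The counts behind this can be set against all genes. By p below 0.05 in the authors' deposited tables, 2 of the 8 genes were lower and 0 higher at 6 weeks, against 4.09% and 4.42% of all genes. At 12 weeks 3 were lower and 0 higher, against 22% and 2.12%. Trim63 and Trim50 were 2 of 159 genes, 1.41% of the table, that were lower at p below 0.05 at both times. Of the 462 genes lower at 6 weeks by that rule, 34.4% were also lower at 12 weeks by it. Trim63 belonged to the 2.9% of genes lower at a false discovery rate below 0.05 at 12 weeks, and 0.0443% were higher. Without regard to p, 5 of the 8 were lower at both times, beside 42.3% of all genes.

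The other 6 genes had no p below 0.05 at 6 weeks. In the authors' deposited table Trim54 had a log2 ratio of −0.32 (p = 0.137), Trim55 −0.12 (p = 0.527) and Trim72 −0.11 (p = 0.952). At 12 weeks the log2 ratio of Trim72 was −0.52 in the authors' deposited table (p = 0.0375), and a difference between the times was not tested. In the authors' deposited table Fbxo32 had least-squares means of 5.18 in MI+TRD and 5.21 in MI at 6 weeks, and 9.33 in MI+TRD and 6.90 in MI at 12 weeks. The log2 ratio of Foxo1 in the authors' deposited table was −0.05 at 6 weeks and 0.23 at 12 weeks, and that of Foxo3 was 0.30 and 0.20, none past p of 0.05. At 6 weeks 9 of 12 macrophage and 6 of 10 fibroblast markers were higher at p below 0.05 in the authors' deposited table, beside 4.42% of all genes. Of 10 endothelial markers 4 were lower, beside 4.09% of all genes, and 0 of 13 cardiomyocyte markers passed in either direction. The part of these cell types in the 6-week ratios was not tested.

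**Figure D3:**
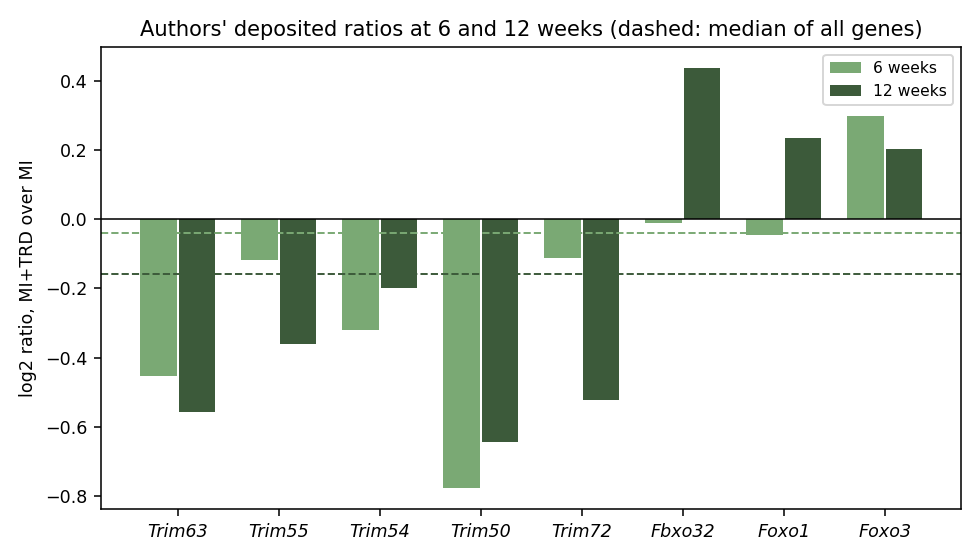
log2 ratios of MI+TRD over MI from the authors' deposited tables at 6 and 12 weeks for the 8 genes, with dashed lines at the median of all genes at each time (−0.04 and −0.16). Bars of Trim63 and Trim50 lie well below both lines at both times, while Fbxo32 is near 0 at 6 weeks and at 0.44 at 12 weeks.

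Among libraries of a group, the values of r for Fbxo32 were higher with the FoxO genes than with Trim63. With group means removed, Pearson's r over the 12 libraries was 0.78 for Foxo1 and Foxo3 (permutation p = 0.00971), 0.77 for Fbxo32 and Foxo3 (permutation p = 0.0112) and 0.76 for Fbxo32 and Foxo1 (permutation p = 0.0105). Spearman's rho was 0.60 (permutation p = 0.0692), 0.73 (0.0193) and 0.73 (0.0198) for the same pairs. Adjusted over the 28 pairs, all 3 values of r had a p of 0.104, so none passed 0.05. Without the 2 libraries farthest from the median of the first gene, r was 0.78 for Foxo1 and Foxo3, 0.66 for Fbxo32 and Foxo3 and 0.61 for Fbxo32 and Foxo1. Without MI+TRD replicates 1, 4 and 5 the values over 9 libraries were 0.74, 0.55 and 0.75. For Fbxo32 and Trim63, r was 0.03.

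The libraries that were high in Fbxo32 were those in which many genes were at 0 reads. In MI+TRD, replicates 1, 4 and 5 had 12.9, 11.1 and 14.1 of Fbxo32, against 3.54 to 7.34 in the other 3. In MI, replicate 4, with the most genes at 0 reads in its group (75), had the highest Fbxo32, 12.0, and the highest Foxo1, 14.6, while Foxo3 was highest in replicate 1 (16.3, with 39 genes at 0 reads). Trim63 did not follow this order: its level in MI+TRD replicate 5, with 178 genes at 0 reads, was 39.5, and in MI+TRD replicate 6, with 13 such genes, it was 38.7. With group means removed, Pearson's r over 12 libraries between a gene's log2 level and the log2 number of genes at 0 reads was 0.92 for Fbxo32, 0.86 for Foxo3, 0.79 for Foxo1 and −0.02 for Trim63. The permutation p of r was 3e-05, 0.00236, 0.00977 and 0.969 in that order, or 0.00120, 0.0472, 0.0651 and 0.969 adjusted over 40 relations of the 8 genes with 5 library measures. Spearman's rho was 0.94, 0.84, 0.65 and −0.11, with a permutation p of 1e-05 (the smallest that 100000 permutations can give), 0.00765, 0.0617 and 0.763, and of the 4 only that of Fbxo32 passed after adjustment (0.00040). Leaving out the 2 libraries farthest from the median of the measure, r was 0.87, 0.83, 0.65 and −0.26. Over the 9 libraries without MI+TRD replicates 1, 4 and 5, r was 0.87, 0.69, 0.76 and 0.44. With the mean log2 level of erythroid markers, r was 0.82 for Foxo1 and 0.76 for Trim54 (adjusted permutation p = 0.0532 for both). With log2 Hba2, r was 0.67 for Trim54 (adjusted permutation p = 0.0624). No relation with a measure other than genes at 0 reads passed an adjusted p of 0.05. These relations were chosen after the values were seen.

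**Figure D4:**
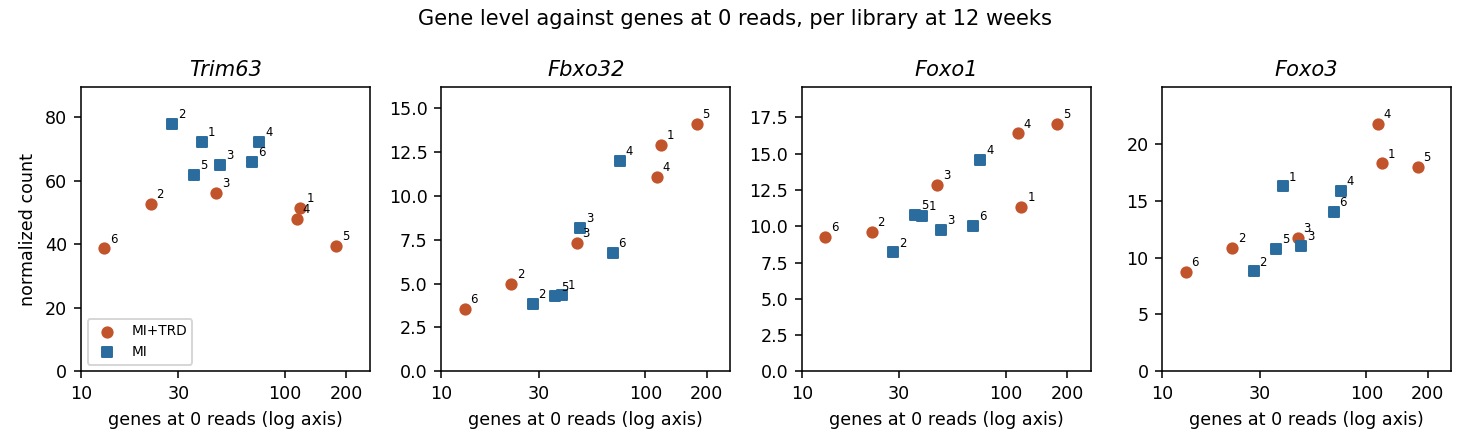
Normalized counts of Trim63, Fbxo32, Foxo1 and Foxo3 (axes from 0) against the number of genes at 0 reads (log axis) in the 6 MI+TRD and 6 MI libraries at 12 weeks, with replicate numbers. Fbxo32 is highest in MI+TRD replicates 1, 4 and 5 and MI replicate 4 (11.1 to 14.1). Trim63 is lower in every MI+TRD library than in any MI library. The MI libraries have 28 to 75 genes at 0 reads, and of the MI+TRD libraries only replicate 3 (46) lies in that range.

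Within each library Trim63 and Fbxo32 can be set against each other, which leaves the scaling between libraries with almost no part in the value. The log2 ratio of Trim63 to Fbxo32 was 1.98, 3.34, 2.90, 2.09, 1.47 and 3.37 in MI+TRD replicates 1 to 6, against 3.98, 4.26, 2.96, 2.57, 3.79 and 3.25 in MI replicates 1 to 6. All 6 MI+TRD values lay below the MI mean of 3.47, and the ranges overlapped. The difference was −0.94 (two-sided exact permutation p = 0.0519), a comparison chosen after the values were seen. The low MI+TRD ratios were those of replicates 1, 4 and 5, the libraries high in Fbxo32. With these left out the ratio averaged 3.203 in MI+TRD (n = 3) and 3.47 in MI (n = 6), and the difference was −0.27 (two-sided exact permutation p = 0.512).

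The genes whose variation among libraries was most like a ligase differed between Fbxo32 and Trim63. By Pearson's r over 12 libraries with group means removed, those most like Fbxo32 were Smyd1, a muscle histone methyltransferase gene (0.98), Rad54l2, a helicase gene (0.97), and Tead1, a transcription factor gene of the Hippo pathway (0.97). Foxo3 ranked 510 and Foxo1 548 of 10628 genes by the same measure. Those most like Trim63 were Mtfr1l, a gene of a mitochondrial protein (0.90), Rd3l (0.87), and Trnau1ap, a gene of selenocysteine tRNA handling (0.83). Mtfr1l lies on the same chromosome as Trim63, 189445 bases away in rn6, and had 123 ± 15.6 in MI+TRD and 151 ± 9.78 in MI (SD, n = 6 each; limma adjusted p = 0.153). Smyd1 had 69.7 ± 22.8 in MI+TRD and 65.8 ± 26.4 in MI (SD, n = 6 each; limma adjusted p = 0.863). These values share libraries and depth and are a description.

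With all 12 libraries, known targets of the FoxO factors lay close to the median gene at 12 weeks. Of 27 measured, 4 were lower and 1 higher in MI+TRD with limma at an unadjusted p below 0.05, which is 14.8% and 3.70% of the list beside 19.1% and 2.79% of all genes. None passed an adjusted p with limma, and the median log2 fold change was −0.12 beside −0.14 for all genes. Median ratio scaling gave 2 lower and 3 higher, beside 8.25% and 7.49% of all genes. Leaving out MI+TRD replicate 6 alone gave 5 lower and 2 higher, beside 2331 and 335 of all 10629 genes. Pink1, a kinase that marks damaged mitochondria, had 183 ± 32.2 in MI+TRD and 282 ± 76.4 in MI (SD, n = 6 each; limma adjusted p = 0.132). Gabarapl1, a protein of the autophagosome membrane, had 60.4 ± 16.7 in MI+TRD and 84.5 ± 15.1 in MI, and Klf15, a glucocorticoid-responsive factor, 26.4 ± 5.30 in MI+TRD and 37.0 ± 6.83 in MI. The fourth lower gene was the translation inhibitor gene Eif4ebp1 (log2 fold change −0.56) and the higher one was the autophagy kinase gene Ulk2 (0.32), both named after their values were seen. With MI+TRD replicates 1, 4 and 5 left out, 0 were lower and 1 higher, beside 9.7% and 2.65% of all genes. In that setting the list's median lay 0.17 above that of all genes, and Gabarapl1 had a log2 fold change of −0.16 in place of −0.51.

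Genes that control FoxO activity lay above the median gene, with a median log2 fold change of 0.13 over 17 measured. At an unadjusted p below 0.05 with limma 3 were higher and 1 lower, beside 2.79% and 19.1% of all genes, and 0 passed an adjusted p. Without MI+TRD replicate 6 alone, 6 were higher and 1 lower, beside 335 and 2331 of all 10629 genes. After median ratio scaling 7 were higher and 0 lower, against 7.49% of all genes higher. Prkaa1, a catalytic subunit gene of AMP-activated kinase, had 16.5 ± 1.97 in MI+TRD and 11.5 ± 3.52 in MI (SD, n = 6 each). Pik3ca, the PI3-kinase catalytic gene, was also on the higher side (log2 fold change 0.36) and was named after its values were seen. Foxo4, another FoxO factor, was on the lower side at 49.5 ± 5.40 in MI+TRD and 63.7 ± 8.76 in MI. After MI+TRD replicates 1, 4 and 5 were left out, 0 of the 17 were higher and 0 lower, beside 2.65% and 9.7% of all genes.

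Other regulators known to act on Fbxo32 or Trim63 gave 1 lower and 1 higher gene of 17 at an unadjusted p below 0.05, which is 5.88% each way beside 19.1% of all genes lower and 2.79% higher. Their median log2 fold change was −0.02, and after median ratio scaling 0 were lower and 1 higher, beside 8.25% and 7.49% of all genes. Rela, an NF-kappa-B subunit gene, had 29.8 ± 2.96 in MI+TRD and 35.8 ± 4.32 in MI (SD, n = 6 each). Tnfrsf1b, a TNF receptor gene, had 8.58 ± 3.42 in MI+TRD and 5.59 ± 1.80 in MI. Ppargc1a, the coactivator that restrains FoxO3 in mouse muscle, had 17.2 ± 6.52 in MI+TRD and 12.2 ± 3.73 in MI, with a limma adjusted p of 0.362. Without MI+TRD replicates 1, 4 and 5 its log2 fold change was 0.15 in place of 0.44, that of Rela −0.17 in place of −0.26, and that of Tnfrsf1b 0.78 in place of 0.58.

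Partners that supply ubiquitin or carry atrogin-1 were split. Of 17 genes of the SCF core and ubiquitin supply, 3 were lower and 2 higher by an unadjusted p below 0.05, which is 17.6% and 11.8% beside 19.1% and 2.79% of all genes. Their median log2 fold change was −0.0045. Median ratio scaling gave 2 lower and 4 higher, beside 8.25% and 7.49% of all genes. Rbx1, the RING subunit of the SCF complex, had 17.0 ± 6.63 in MI+TRD and 27.5 ± 6.60 in MI (SD, n = 6 each). Ube2d3, a ubiquitin-conjugating enzyme, was on the higher side at 78.6 ± 6.502 in MI+TRD and 54.6 ± 21.3 in MI. With MI+TRD replicates 1, 4 and 5 left out, Rbx1 had a log2 fold change of −0.23 in place of −0.74, while Ube2d3 had 0.63 in place of 0.62.

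Of 19 other muscle ligase genes, 6 were lower and 1 higher by an unadjusted p below 0.05. These were 31.6% and 5.26% of the list, beside 19.1% and 2.79% of all genes. The list's median log2 fold change was −0.06, above the −0.14 of all genes. After median ratio scaling 1 was lower and 2 were higher, beside 8.25% and 7.49% of all genes. Without MI+TRD replicate 6 alone 5 were lower and 2 higher, beside 2331 and 335 of all 10629 genes. Stub1, the chaperone-linked ligase CHIP, had 61.9 ± 9.32 in MI+TRD and 87.8 ± 14.7 in MI, with no overlap (48.1 to 72.1 in MI+TRD and 74.6 to 113 in MI). Asb2, a cullin ligase subunit that acts on filamin, had 347 ± 31.3 in MI+TRD and 466 ± 76.0 in MI, also with no overlap. Of all genes 1.59% lay below in the same way, and Stub1 and Asb2 were named for their small p in these libraries. In the authors' deposited table Asb2 had a ratio of 0.761 at 6 weeks with p = 0.0211, the smallest p of the 3 named genes of this list at that time. Neurl2, a ligase gene of muscle, had 11.7 ± 2.03 in MI+TRD and 16.0 ± 3.11 in MI (SD, n = 6 each). None passed over all genes (limma adjusted p = 0.132, 0.132 and 0.143). After MI+TRD replicates 1, 4 and 5 were left out, 3 were lower and 0 higher, against 9.7% of all genes lower.

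Sarcomere proteins that MuRF1 binds or marks, and other targets and partners, gave 5 lower and 0 higher of 20 by an unadjusted p below 0.05, and the 25.0% lower stood near the 19.1% of all genes. Their median log2 fold change of −0.15 stood beside −0.14 for all genes. After median ratio scaling 2 were lower and 2 higher, beside 8.25% and 7.49% of all genes. Without MI+TRD replicate 6 alone 3 were lower and 0 higher, beside 2331 and 335 of all 10629 genes. Tcap, the telethonin cap of titin, had 213 ± 112 in MI+TRD and 382 ± 26.4 in MI (SD, n = 6 each), with no overlap between 101 to 343 in MI+TRD and 364 to 433 in MI. Without MI+TRD replicates 1, 4 and 5 its log2 fold change was −0.29 in place of −1.02. Mybpc3, cardiac myosin-binding protein C, had 1719 ± 193 in MI+TRD and 2283 ± 306 in MI. Srf, the serum response factor gene, had 80.3 ± 9.39 in MI+TRD and 109 ± 20.9 in MI. Mybpc3 and Srf also had no overlap, beside 1.59% of all genes that lay below in this way. Tcap, Mybpc3 and Srf were named for their small p in these libraries. The other 2 lower genes, named after their values were seen, were the troponin gene Tnni3 (log2 fold change −0.42) and the myosin light chain gene Myl2 (−0.71). None passed over all genes with limma (adjusted p = 0.132 for Tcap and Srf and 0.158 for Mybpc3). In the authors' deposited table at 12 weeks Tcap had a false discovery rate of 0.0483, past 0.05, as had 2.9% of all genes on the lower side. Srf had 0.0657 and Mybpc3 0.186 there.

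Of 12 membrane repair genes around MG53, 2 were lower and 0 higher by an unadjusted p below 0.05, and the 16.7% lower stood near the 19.1% of all genes. Their median log2 fold change was −0.04, and after median ratio scaling 1 was lower and 0 higher, beside 8.25% and 7.49% of all genes. Without MI+TRD replicates 1, 4 and 5, 4 of the 12 were lower and 1 higher, beside 9.7% and 2.65% of all genes. Cav3, muscle caveolin and a binding partner of MG53, had 49.1 ± 7.60 in MI+TRD and 74.5 ± 16.9 in MI (SD, n = 6 each). Anxa5 and Anxa6, annexins that gather at membrane tears, had 59.9 ± 14.4 and 98.1 ± 4.23 in MI+TRD, against 81.7 ± 7.71 and 119 ± 21.6 in MI. The groups overlapped for Cav3 and Anxa5 and not for Anxa6, beside 1.59% of all genes that lay below without overlap. With MI+TRD replicates 1, 4 and 5 left out the log2 fold change of Cav3 was −0.42 in place of −0.58, and that of Anxa5 was −0.19 in place of −0.48. None passed over all genes (limma adjusted p = 0.132, 0.132 and 0.239).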

How the data were processed

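The deposited values per library are normalized counts, a signal made by the authors with Partek on rn6, per the submitters' processing notes. No source used here names the aligner, counting rules, scaling or model. Low values were whole multiples of the smallest value of their library, so a value was read as reads plus 1, times that step. Among values up to 20 steps, 97.2% to 98.6% came out whole to within 0.1 step. The authors' deposited comparison tables give a linear ratio of MI+TRD to MI, p-values with a step-up false discovery rate, and least-squares means. The authors' deposited signed fold change, a score that by its values is the ratio or minus its reciprocal, was not used.

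At 12 weeks limma 3.58.1 with a trended prior was fitted to log2(value + 0.229), 5 median steps, for 10629 genes with a mean of at least 0.458, with Benjamini-Hochberg adjustment and no covariates. edgeR 4.0.16 (0 genes called over the whole table) and DESeq2 1.42.0 (21 genes called) were run on recovered reads. The fit was tested on simulated data, with 50 genes changed at each fold. At an adjusted p below 0.05 limma recovered 14% of those changed 1.5-fold and 66% of those changed 2-fold. It recovered 94% at 3-fold and 100% at 4-fold, with 6 false calls among 10593 genes tested. Pairs were tested by 100000 permutations within groups. The members and lists were chosen with earlier results of these data known. Named genes were the members, the 3 genes of each pathway list with the smallest p, and the 3 genes most like Fbxo32 and Trim63. Some genes that this rule names are not reported here. The labels name no animals; the p-values therefore rest on the spread of these samples, which may be technical. Intervals and reads cover counting and sample spread only. All pairs of libraries within a group differed beyond counting noise (smallest chi-square per gene 14.7).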

Additional observations from a re-analysis of the deposited data

Results flagged for a closer look

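In 4 of 70 gene and group sets, 1 library lay far from the other 5 relative to the range, where chance gives about 1 in 20. All 4 are in MI. MI replicate 4 had the highest Pink1 (433, next 272), Asb2 (616, next 468) and Mybpc3 (2885, next 2299). It also had the highest column total, and was the MI library highest in Fbxo32. MI replicate 1 had the highest Tcap (433, next 388). None of the 8 ligase and FoxO genes was among them.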

How the results depend on the processing

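Trim63 was lower in MI+TRD under all 31 alternatives, from −0.59 to −0.27 (log2), and Trim50 from −0.70 to −0.33. Relative to the median gene, the Trim63 value nearest 0 was −0.15, without MI+TRD replicates 1, 4, 5 and 6. For Trim50 it was −0.32, without MI+TRD replicates 1, 4 and 5. No alternative gave any of the 8 genes an adjusted p below 0.05. Of 1085 alternative values for 35 named genes, 26 changed sign and the cause was not tested. Without MI+TRD replicates 1, 4 and 5 the log2 fold change was −0.24 for Fbxo32, −0.0065 for Foxo1, −0.26 for Foxo3, −0.31 for Smyd1, −0.24 for Rad54l2 and −0.41 for Tead1. Without replicate 6 as well (chosen after seeing the data) it was −0.14 for Foxo3, −0.13 for Smyd1, −0.15 for Rad54l2, −0.25 for Tead1 and 0.29 for Rd3l. With atrial markers as a covariate Smyd1 had −0.14, Rad54l2 −0.047 and Tead1 −0.059, and with erythroid markers (chosen after seeing the data) Smyd1 had −0.036. Leaving out 1 library gave Smyd1 −0.013 (MI+TRD replicate 5), −0.0093 (MI replicate 5) and up to 0.27 (MI replicate 4). Trim54 had 0.00475 with median ratio scaling, 0.080 with equal totals, 0.029 with equal totals without ribosomal RNA, 0.061 with quantile normalization, 0.12 with equal cardiomyocyte markers and 0.00487 with DESeq2. Rela and Anxa6 had 0.016 with equal cardiomyocyte markers, and Mybpc3 had 0.026 with quantile normalization.

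The number of genes lower at an unadjusted p below 0.05, 2034, became 877 with median ratio scaling, 412 with equal totals, 706 with equal totals without ribosomal RNA, 1044 with quantile normalization, 157 with equal cardiomyocyte markers, 661 with the gene span trend removed, 1031 without MI+TRD replicates 1, 4 and 5, 973 without replicate 6 as well, 743 with edgeR and 764 with DESeq2. The number higher, 297, became 796, 1206, 898, 695, 1451 and 711 under the first 6 of these, 102 without MI+TRD replicates 1, 4, 5 and 6, 148 with library weights, 848 with edgeR and 941 with DESeq2. Leaving out 1 library gave 1428 to 2331 lower and 190 to 347 higher, the 190 without MI replicate 4. DESeq2 called 21 genes at an adjusted p, where limma and edgeR called 0. Of the 8 ligase and FoxO genes 2 were lower with median ratio scaling, equal totals without ribosomal RNA, quantile normalization, the span trend removed, edgeR, DESeq2, and without MI+TRD replicates 1, 4 and 5, with or without 6. With equal totals 1 was lower, and with equal cardiomyocyte markers 0. Leaving out 1 library gave 2 to 4 lower, the 2 without MI+TRD replicate 4. With median ratio scaling, equal totals (with or without ribosomal RNA), edgeR and DESeq2 1 was higher, and with equal cardiomyocyte markers 3.

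With the replicate number as a block, Trim63 had −0.54 (limma adjusted p = 0.169), and 1833 genes were lower, 272 higher and 0 called at an adjusted p. The correlation of same-numbered samples was −0.33 to 0.33, and 3 of 6 numbers matched best, so the numbers were not taken as pairs. Fbxo32 had 78 to 358 reads per library, and the part of read number in its spread was not tested.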
